A study of Rattus norvegicus with 24 samples.

Results

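The genes described here are 9 components of the adrenergic and cyclic AMP pathway of the heart: the receptors Adrb1, Adra1a and Adra1b, the adenylyl cyclases Adcy5 and Adcy6, the phosphodiesterases Pde3a, Pde4b and Pde4d, and the regulatory subunit Prkar1a of protein kinase A (PKA). They are 9 of 22093 genes that the array's annotation names with exactly 1 symbol. Each gene is represented by its transcript cluster, the unit of measurement on this array, and where a gene had several, by the one with the highest mean over all 24 arrays. The tissue was heart, left ventricle apex, and the animals were male RccHan Wistar rats aged 7 to 8 weeks. They were fed 400 ppm rotenone, an insecticide from plant roots that inhibits respiratory complex I of mitochondria, for 1, 3 or 14 days, or feed with 0 ppm rotenone for the same time. Each of the 6 groups held 4 rats with 1 array each, and each rotenone group was set against the time-matched control group. The study's rotenone rats weighed less than their controls, and the methods describe no control group matched for feed intake, so rotenone as such and lower intake or weight cannot be told apart as sources of a change.

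As background, noradrenaline and adrenaline reach the cardiomyocyte through beta receptors, which activate adenylyl cyclase through a stimulatory G protein, and through alpha-1 receptors, which act through Gq and phospholipase C. Adenylyl cyclase makes cyclic AMP, phosphodiesterases break it down close to where it is made, and PKA carries its signal to calcium channels, phospholamban and the transcription factor CREB, which raises the force and rate of contraction. Muscarinic receptors of the vagus nerve act against this through an inhibitory G protein.

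Each change is the mean log2 intensity of rotenone rats minus that of control rats, given with the standard error (SE) of a linear model (limma) over all 24 arrays, with n = 4 rats per group. A transcript cluster was called changed at a Benjamini-Hochberg adjusted p of 0.05 over all 68842 tested. Within groups, arrays correlated at a mean r of 0.986 to 0.990. Of all transcript clusters, 14.7% lay above 8.44 log2 units, the level under which 95% of negative control values fell, and all 9 members had a mean above that bound. The probes of different genes differ in brightness, so levels are not compared between genes. On day 1 the median change of the transcript clusters above the bound was -0.11, against -0.16 with array medians made equal and 0.00306 after quantile normalization. On day 1, 7 of the 9 members had a change below 0 under each of these scalings, with a median of -0.27 as deposited, -0.32 with equal medians and -0.10 after quantile normalization. All 9 cardiomyocyte markers measured averaged above the bound and 0 were called on any day. Of these Nppa, a natriuretic peptide gene, had changes of 0.99 on day 3 and 1.59 on day 14 (adjusted p = 0.582 and 0.13), and the brightest markers lie near the top of the scale, where changes may be compressed.

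In the hearts of rotenone rats, Adcy6, the cyclase isoform that beta receptors drive in cardiomyocytes beside Adcy5, was higher on each day, and Pde4b, a phosphodiesterase specific for cyclic AMP, was lower on each day. These 2 of the 9 members were called on day 1, on day 3 and on day 14, and the other 7 were called on no single day. Among all transcript clusters, 0.49% were called on day 1 (0.199% higher, 0.291% lower), 0.84% on day 3 (0.291% higher, 0.549% lower) and 2.89% on day 14 (1.4% higher, 1.49% lower), and among those above the bound 2.24%, 2.91% and 10.7%. The genes were selected on their measured changes between rotenone and control rats on these same days, and each transcript cluster was chosen by its mean intensity, so the counts and the adjusted p-values place the members within the whole table and are a description of them. In whole tissue, fewer cells of a type and less RNA per cell cannot be told apart.

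**Figure D1:**
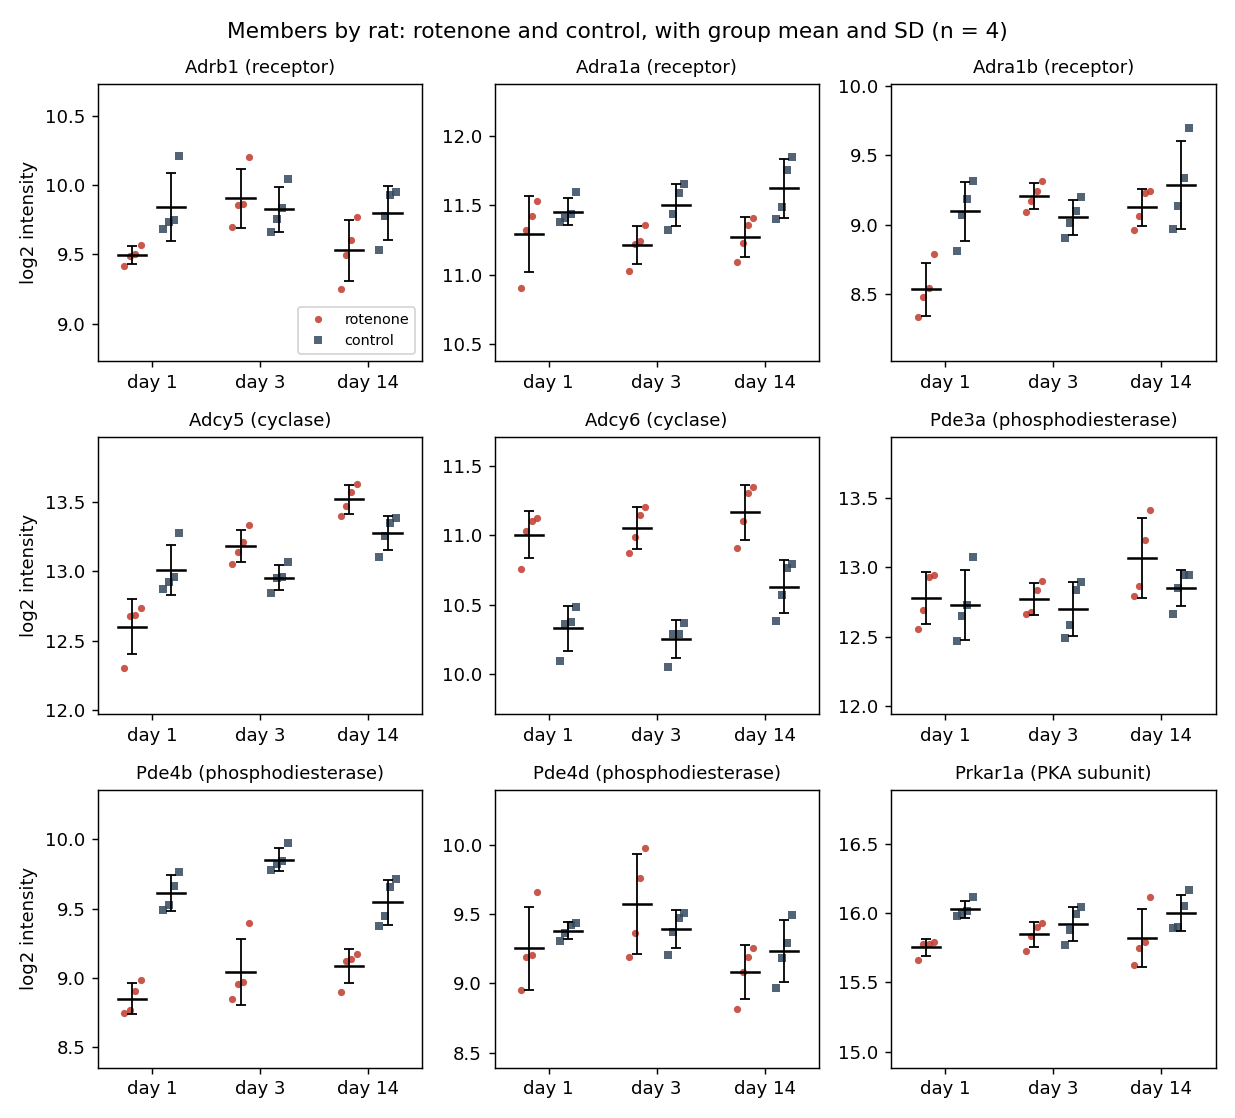
Log2 intensity of the 9 members in each rat by day, rotenone rats (circles) left of control rats (squares), with points of a group spread sideways in order of value, the mean as a line and the SD as a bar (n = 4). Each panel spans the same range of 2 log2 units: the 4 rotenone values lie above the 4 control values for Adcy6 and below them for Pde4b on each of the 3 days, while the groups overlap on each day for Adra1a, Pde3a and Pde4d.

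The beta-1 receptor gene Adrb1, the main beta receptor of the ventricle, had 9.49, 9.42, 9.57 and 9.51 log2 units in rotenone rats 1 to 4 on day 1, against 9.75, 10.21, 9.73 and 9.69 in control rats. All 4 rotenone values lay below the control values, of which rat 2 stood far above the other 3, and the change was -0.35 ± 0.14 (adjusted p = 0.475). On day 3 the values were 10.20, 9.85, 9.86 and 9.70 in rotenone rats, against 10.05, 9.76, 9.84 and 9.66 in control rats. On day 14 they were 9.77, 9.49, 9.60 and 9.25 in rotenone rats, against 9.78, 9.93, 9.53 and 9.95 in control rats. The groups overlapped on both later days, with changes of 0.08 and -0.27 that were not called. The test of a difference between days did not pass (F-test, adjusted p = 0.757).

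Adra1a and Adra1b encode the alpha-1A and alpha-1B receptors, which couple to Gq. Adra1a was lower in the mean of the rotenone rats on each day, by -0.16, -0.29 and -0.35 ± 0.13 on days 1, 3 and 14, with overlapping groups and no call. The rotenone rats of day 14 had 11.41, 11.23, 11.09 and 11.36 log2 units, and the control rats 11.75, 11.85, 11.40 and 11.49, so that the groups overlapped only through rotenone rat 1 and control rat 3. The day 14 change passed when only transcript clusters above the bound were tested (adjusted p = 0.0475). Averaged over the 3 days the change of Adra1a was -0.27 ± 0.08, which was called (adjusted p = 0.0412), as were 5.59% of all transcript clusters and 18.7% of those above the bound. That call was lost in 16 of 24 fits that each left out 1 array, with adjusted p-values up to 0.0798, and after quantile normalization (0.0842). A second transcript cluster of Adra1a averaged below the bound, was called on no day and had changes of -0.26, 0.21 and 0.34. With the mean of both clusters in place of the brighter one, the average change was -0.08 (adjusted p = 0.713).

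Adra1b differed most on day 1, with 8.79, 8.55, 8.33 and 8.48 log2 units in rotenone rats and 9.31, 9.19, 9.07 and 8.81 in control rats. The groups did not overlap, although the highest rotenone rat and the lowest control rat were close, and rotenone rat 3 lay below the negative control bound. The change of -0.56 ± 0.14 was not called over all transcript clusters (adjusted p = 0.0866). It passed when only transcript clusters above the bound were tested (adjusted p = 0.0144) or only those above the median (0.0331), where fewer tests enter the adjustment, and with an offset of 32 added to all intensities, which leaves the number of tests unchanged (-0.52, 0.0452). On day 3 the values were 9.32, 9.17, 9.24 and 9.09 in rotenone rats, against 9.20, 9.02, 8.90 and 9.10 in control rats, and on day 14 they were 9.23, 9.24, 8.96 and 9.07 in rotenone rats, against 9.34, 9.13, 8.97 and 9.70 in control rats. Both pairs of groups overlapped, with changes of 0.15 and -0.16, and the difference between days did not pass (limma F-test, adjusted p = 0.443).

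A further 5 adrenergic receptors were measured near background. Adrb3, Adra1d, Adra2a, Adra2b and Adra2c had a mean below the bound, from 4.50 for Adra2a to 5.38 for Adra1d, and 0 were called on any day. Changes of single genes ranged from -0.46 to 0.50 over the 3 days, at levels where the array does not separate signal from background.

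Adcy5 and Adcy6 are the cyclases that calcium and G protein alpha-i inhibit, and they are the predominant isoforms of the ventricle. Adcy6 had 11.13, 11.11, 10.76 and 11.03 log2 units in rotenone rats 1 to 4 on day 1, against 10.38, 10.36, 10.48 and 10.10 in control rats. On day 3 the values were 10.99, 11.15, 11.21 and 10.87 in rotenone rats, against 10.05, 10.37, 10.29 and 10.29 in control rats. On day 14 they were 11.11, 11.35, 10.91 and 11.30 in rotenone rats, against 10.80, 10.57, 10.76 and 10.38 in control rats. All rotenone values lay above all control values on each day, with the closest approach on day 14, where rotenone rat 3 was just above control rat 1. Adcy6 was 1.60-fold higher on day 1 (0.68 ± 0.13, adjusted p = 0.0119), 1.74-fold on day 3 (0.80, adjusted p = 0.00201) and 1.45-fold on day 14 (0.54, adjusted p = 0.022). Its 3 changes were not shown to differ from each other (F-test, adjusted p = 0.906), and their average was 0.67 ± 0.07 (adjusted p = 5.09e-06).

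The call for Adcy6 on day 3 remained without any of the 8 arrays of that day. On day 1 it was lost without control rat 4 (0.60, adjusted p = 0.0581) and with the array medians set equal (0.63, 0.0935). On day 14 it was lost without control rat 2 (0.52, 0.0594) or 4 (0.46, 0.0863), without rotenone rat 2 (0.48, 0.0826) or 4 (0.49, 0.086), and with equal medians (0.48, 0.124).

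Adcy5 had 12.68, 12.69, 12.31 and 12.74 log2 units in rotenone rats on day 1, against 12.96, 12.87, 13.27 and 12.92 in control rats. On day 3 it had 13.21, 13.33, 13.14 and 13.06 in rotenone rats, against 12.84, 12.95, 12.96 and 13.07 in control rats, and on day 14 it had 13.47, 13.63, 13.40 and 13.57 in rotenone rats, against 13.38, 13.26, 13.11 and 13.35 in control rats. The rotenone rats lay below all controls on day 1, overlapped with them on day 3 through rotenone rat 4 and control rat 4, and lay above all controls on day 14, there by a margin of rotenone rat 3 over control rat 1 that was small. The changes were -0.41, 0.23 and 0.24 ± 0.11, and none was called (adjusted p = 0.136, 0.498 and 0.301). Groups without overlap on both day 1 and day 14, in opposite directions, were found for 0.0755% of all transcript clusters and 0.207% of those above the bound. The effect on day 14 exceeded that on day 1 by 0.65 ± 0.16 (adjusted p = 0.125), and the F-test over the 3 days gave an adjusted p of 0.208 in limma, the smallest among the 9 members. Restricted to transcript clusters above the bound, the day 1 change of Adcy5 passed (adjusted p = 0.0191, and 0.0469 above the median), and so did its difference between days, the only such call among the members. In the fit over all transcript clusters 0 members passed limma's F-test, beside 0.0145% of all transcript clusters and 0.0592% of those above the bound. At an unadjusted p under 0.05 in that F-test there were 2 members, Adcy5 and Adra1b, and 4870 of the 68842 transcript clusters.

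Of the 8 other adenylyl cyclases, 0 averaged above the bound. Adcy1, a calmodulin-stimulated cyclase, was the only one called, lower on day 14 with 6.95, 6.82, 6.37 and 6.32 log2 units in rotenone rats against 7.26, 7.00, 7.53 and 7.57 in control rats (-0.72 ± 0.16, adjusted p = 0.0149). All of these values are within the range of the negative controls, so the size of that change is uncertain, and the call was lost in 4 of 8 fits with 1 array left out (without control rat 3 or 4 or rotenone rat 3 or 4, adjusted p up to 0.0699).

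**Figure D2:**
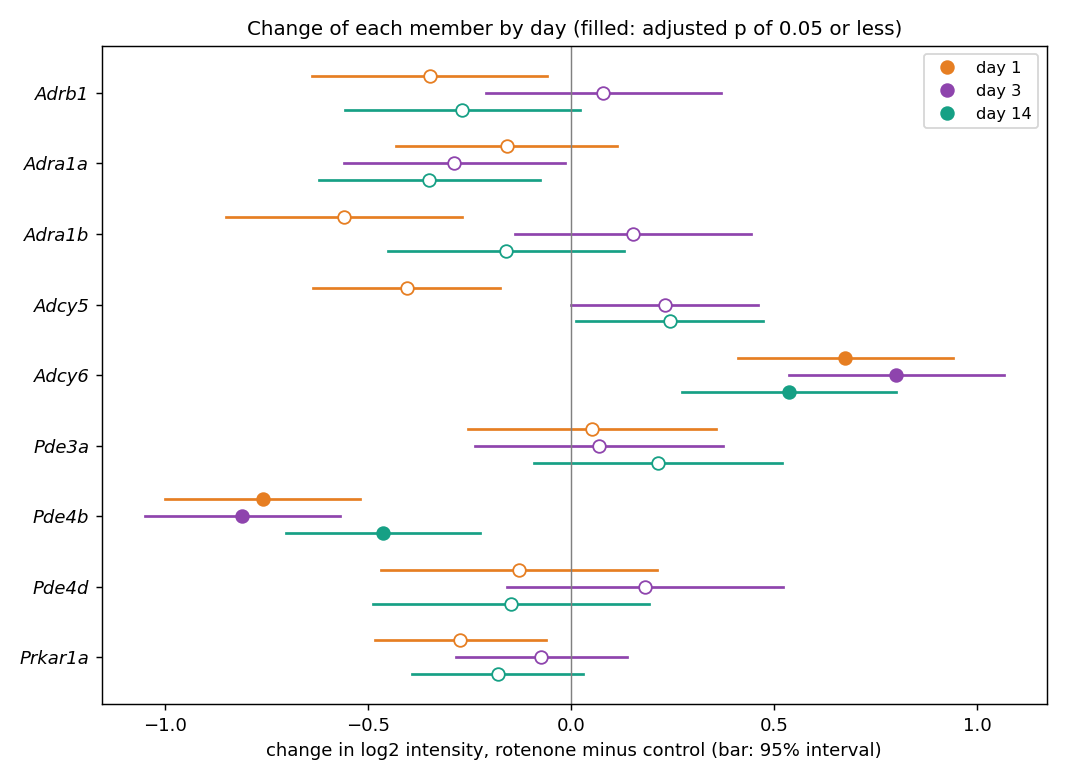
Change in log2 intensity, rotenone minus control, of the 9 members (rows, ordered by role) on day 1, day 3 and day 14 (colours). Points are fitted changes, bars their 95% intervals, and filled points have an adjusted p of 0.05 or less: only the 3 points of Adcy6, to the right of 0, and the 3 of Pde4b, to the left, are filled.

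Among the phosphodiesterases, Pde4b had 8.99, 8.90, 8.77 and 8.74 log2 units in rotenone rats on day 1, against 9.49, 9.76, 9.66 and 9.53 in control rats. On day 3 it had 9.39, 8.85, 8.97 and 8.96 in rotenone rats, against 9.78, 9.97, 9.84 and 9.82 in control rats. On day 14 it had 9.14, 8.90, 9.12 and 9.17 in rotenone rats, against 9.71, 9.65, 9.37 and 9.45 in control rats. Each rotenone rat lay below each control rat of its day, and rotenone rat 1 of day 3 was the nearest to its controls on that day. Relative to control, Pde4b was at 0.590 of the level on day 1 (-0.76 ± 0.12, adjusted p = 0.00234), 0.570 on day 3 (-0.81, adjusted p = 0.000849) and 0.725 on day 14 (-0.46, adjusted p = 0.0304). The smaller change of day 14 was not shown to differ from the others (F-test, adjusted p = 0.759), and the average over days was -0.68 ± 0.07 (adjusted p = 1.53e-06). The calls on days 1 and 3 remained without any 1 of the 8 arrays. On day 14 the call ended when control rat 1 (-0.41, adjusted p = 0.0902) or 2 (-0.43, 0.087) was left out, without rotenone rat 2 (-0.40, 0.107), 3 (-0.48, 0.0716) or 4 (-0.49, 0.0566), and with the array medians set equal (-0.52, 0.056).

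Calls on all 3 days in 1 direction, as for Adcy6 and Pde4b, were made for 0.139% of all transcript clusters and 0.73% of those above the bound, and groups apart in 1 direction on all 3 days were found for 0.673% and 2.81%. Neither gene's change reached the 1.8-fold that the study's methods used as a minimum, and neither was called on any day when only the 8 arrays of that day were fitted (adjusted p = 0.0503 to 0.191 for Adcy6 and 0.0575 to 0.191 for Pde4b).

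Transcription of Pde4b is known to be induced by cyclic AMP in several cell types. The windows upstream of Pde4b are therefore shown with those of Sik1 and Nr4a1, which are known targets of CREB and whose values follow below. The sequences are from RefSeq on assembly GRCr8, run 5′ to 3′ on the gene's strand from 250 bases before an annotated start to 50 bases from it, and carry the letters TGACG, or CGTCA on the other strand, in capitals. These 5 letters are the core of the cyclic AMP response element TGACGTCA, in which both overlap. Of 33469 such windows of the rat genome, 21.2% hold the core on either strand and 1.83% the full element.
Pde4b, start 1, chr5:122028706-122029005, plus strand: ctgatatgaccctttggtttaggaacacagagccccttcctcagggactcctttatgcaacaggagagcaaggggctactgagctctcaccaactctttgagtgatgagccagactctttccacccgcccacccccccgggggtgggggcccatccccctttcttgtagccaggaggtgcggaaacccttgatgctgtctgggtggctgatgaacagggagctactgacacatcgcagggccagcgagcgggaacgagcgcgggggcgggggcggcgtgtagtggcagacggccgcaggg
Pde4b, start 2, chr5:122222323-122222622, plus strand: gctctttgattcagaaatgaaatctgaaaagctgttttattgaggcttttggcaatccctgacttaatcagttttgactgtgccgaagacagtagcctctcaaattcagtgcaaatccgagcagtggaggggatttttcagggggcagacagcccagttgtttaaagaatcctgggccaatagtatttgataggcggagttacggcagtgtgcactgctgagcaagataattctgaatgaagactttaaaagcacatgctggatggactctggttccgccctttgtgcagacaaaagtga
Sik1, chr20:9958597-9958896, minus strand: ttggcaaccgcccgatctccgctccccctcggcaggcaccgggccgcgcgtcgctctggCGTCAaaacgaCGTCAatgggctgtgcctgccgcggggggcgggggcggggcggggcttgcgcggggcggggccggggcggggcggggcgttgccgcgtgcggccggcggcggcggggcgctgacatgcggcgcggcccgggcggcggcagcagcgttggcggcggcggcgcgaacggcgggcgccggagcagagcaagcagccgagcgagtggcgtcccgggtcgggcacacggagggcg
Nr4a1, chr7:134259888-134260187, plus strand: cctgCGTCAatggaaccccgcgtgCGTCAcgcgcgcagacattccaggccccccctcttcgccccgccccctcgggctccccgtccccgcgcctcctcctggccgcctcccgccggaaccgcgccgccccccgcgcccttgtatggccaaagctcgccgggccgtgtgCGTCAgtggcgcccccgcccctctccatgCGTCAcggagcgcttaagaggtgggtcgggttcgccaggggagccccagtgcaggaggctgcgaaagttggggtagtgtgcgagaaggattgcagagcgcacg
The Pde4b windows held 0 matches, the Sik1 window 2, the first letters of which lie at -191 and -180 from the start, and the Nr4a1 window 4, at -246, -226, -82 and -53. A match is a description of the letters, and the absence of a match says only that they are not in this window. Of the 9 members, 7 had 12 windows in the table, and 3 of these windows held the core: 1 of Adrb1 and 2 of the 5 of Pde4d. Of the CREB target list described below, 5 of 6 windows held it, and 2, of Ppargc1a and Dusp1, the full element.

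Pde3a, the cyclic GMP-inhibited phosphodiesterase that the heart drug milrinone blocks, overlapped between groups on each day. On day 14 it had 12.86, 12.79, 13.41 and 13.19 log2 units in rotenone rats, against 12.95, 12.85, 12.66 and 12.94 in control rats, where rotenone rats 3 and 4 were above all controls and rats 1 and 2 among them. Its changes were 0.05, 0.07 and 0.21 ± 0.15 (adjusted p = 0.962, 0.95 and 0.576), and the 95% interval on day 14 ran from -0.09 to 0.52. Pde4d, a paralogue of Pde4b that is bound to the ryanodine receptor and to beta receptor complexes, had changes of -0.13, 0.18 and -0.15 ± 0.16 and overlapped on each day. Its 4 rotenone rats of day 3, at 9.97, 9.36, 9.76 and 9.19, were spread more widely than the control rats, at 9.37, 9.47, 9.51 and 9.20. For neither gene did an interval reach the change of Pde4b on days 1 or 3: the lowest bound was -0.49, for Pde4d on day 14. That day 14 interval of Pde4d did contain the change of Pde4b on day 14, -0.46. The difference between the genes was not tested.

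Of 14 other cyclic nucleotide phosphodiesterases measured, 4 averaged above the bound, and 1 was called, on day 14. This was Pde4a, a further enzyme specific for cyclic AMP, with 8.06, 7.71, 7.65 and 7.63 log2 units in rotenone rats against 8.27, 8.31, 7.99 and 8.16 in control rats (-0.42 ± 0.11, adjusted p = 0.0442). Rotenone rat 1 lay above control rat 3, all values were below the bound, and the call was lost in 6 of 8 fits with 1 array left out (adjusted p up to 0.151) and with equal array medians (-0.47, 0.0549).

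Prkar1a, the type I regulatory subunit that holds PKA inactive until cyclic AMP binds, varied least of the members, with a residual SD of 0.124 log2 units. On day 1 it had 15.79, 15.66, 15.78 and 15.78 in rotenone rats, against 15.98, 16.02, 16.11 and 15.99 in control rats. The groups did not overlap, but the change of -0.27 ± 0.10 was not called (adjusted p = 0.409) and was -0.10 after quantile normalization. On days 3 and 14 the groups overlapped, with changes of -0.07 and -0.18. After quantile normalization these were -0.17 and -0.46, not called (adjusted p = 0.852 and 0.255), so the order of the days depends on the scaling. The average over days, -0.18 ± 0.06, missed the threshold (adjusted p = 0.0891) and passed it without rotenone rat 1 of day 14 (-0.21, adjusted p = 0.0151), which at 16.12 lay among the controls. It also passed with the tests limited to transcript clusters above the bound (0.0154) or above the median (0.0315), and with an offset of 32 added before log2 (0.0332).

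Counted over the members, the values of the 2 groups were apart for 6 genes on day 1 (1 higher, 5 lower), for 2 on day 3 (1 higher, 1 lower) and for 3 on day 14 (2 higher, 1 lower). Among transcript clusters above the bound they were apart for 14.3% on day 1 (4.93% higher, 9.39% lower), 17.2% on day 3 (9.2% higher, 8.02% lower) and 18.7% on day 14 (10.4% higher, 8.28% lower). Among all transcript clusters the shares apart were 5.72%, 6.93% and 7.75% on days 1, 3 and 14. Besides Adcy6 and Pde4b, the members apart were Adrb1, Adra1b, Adcy5 and Prkar1a on day 1, all lower, and Adcy5 on day 14. As background for time alone, control rats of day 14 were set against control rats of day 1, a contrast that played no part in the choice of the genes. It gave 0 calls by limma among the members and 0 among all transcript clusters (0%), with 2 members and 5013 transcript clusters at an unadjusted p under 0.05. These members were Adcy6 (0.30 ± 0.13) and Adcy5 (0.27 ± 0.11), both higher on day 14 than on day 1, neither of which passed (adjusted p = 0.651 and 0.643).

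By likeness over the 24 arrays, the 3 genes above the bound that followed Adcy6 most closely were the long noncoding RNAs LOC100911111 (Pearson r = 0.930) and LOC102555456 (0.930) and Lamb2, a laminin chain of basement membranes (0.913). Those closest to Pde4b were Msrb3, a methionine sulfoxide reductase (0.912), Ppp6c, the catalytic subunit of protein phosphatase 6 (0.898), and Lims1, an adaptor of integrin adhesions (0.894). They were taken from 5113 genes, and the arrays share the contrast between rotenone and control: with the group means removed, r was 0.52 to 0.63 for the first 3 genes and 0.21 to 0.43 for the others. These values are a description with no test.

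The rest of the pathway was followed in 14 lists of 139 other genes, of which 134 were measured and 55 averaged above the bound. Of the 134, 2 were called on day 1 (0 higher, 2 lower), 6 on day 3 (1 higher, 5 lower) and 13 on day 14 (4 higher, 9 lower). These are 1.49%, 4.48% and 9.7%, beside 0.49%, 0.84% and 2.89% of all transcript clusters and 2.24%, 2.91% and 10.7% of those above the bound. The median change was -0.06, -0.03 and -0.06. When only the 8 arrays of a day were fitted, 0 of the 134 were called on day 3 and 0 on day 14. The lists with the most calls were CREB target genes on day 3 (3 of 8) and, on day 14, PKA subunits and inhibitors (3 of 8) and catecholamine handling (3 of 9), while 0 of 9 G protein subunits, 0 of 8 CREB family members and coactivators and 0 of 7 other cyclic AMP effectors were called on any day.

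**Figure D3:**
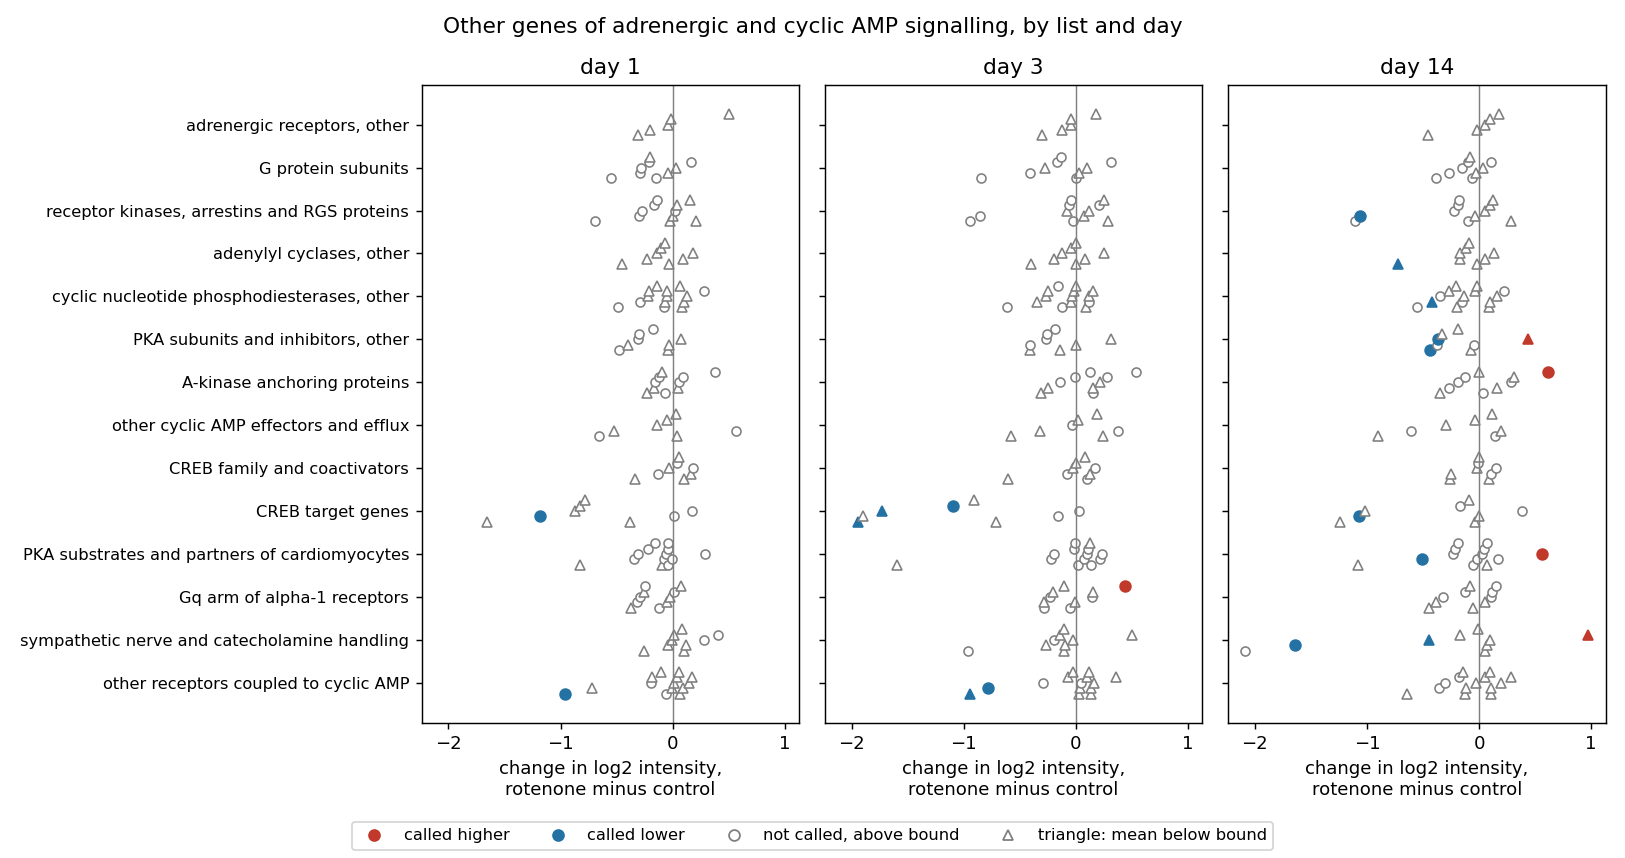
Change in log2 intensity, rotenone minus control, of 134 other genes of the pathway in 14 lists (rows), with 1 panel per day. Filled points were called higher (red) or lower (blue), open points were not called, and triangles mark genes whose mean lay below the negative control bound; the calls number 2, 6 and 13 on days 1, 3 and 14, and most points lie near 0.

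Chrm2, the muscarinic M2 receptor through which the vagus nerve slows the heart and inhibits adenylyl cyclase, was lower on days 1 and 3. On day 1 it had 14.68, 14.76, 14.84 and 14.60 log2 units in rotenone rats, against 15.70, 15.69, 15.69 and 15.66 in control rats, and on day 3 it had 15.19, 15.21, 14.83 and 14.88 in rotenone rats, against 15.65, 15.96, 16.01 and 15.64 in control rats. The groups were apart on both days, and the level relative to control was 0.512 on day 1 (-0.96 ± 0.14, adjusted p = 0.00174) and 0.579 on day 3 (-0.79, adjusted p = 0.00516), calls that remained without any 1 array. After quantile normalization the day 1 change was -0.74 and no longer passed (adjusted p = 0.115). On day 14 the rotenone rats had 14.97, 15.57, 15.52 and 15.61 and the control rats 15.79, 15.61, 15.51 and 15.98. These overlapped, and the change of -0.31 was not called (adjusted p = 0.304). Rgs6, which shortens signalling by the inhibitory G protein downstream of this receptor, had 9.87, 9.37, 9.51 and 8.52 in rotenone rats of day 14, against 10.43, 10.33, 10.73 and 10.02 in control rats (-1.06 ± 0.23, adjusted p = 0.0137). Its groups did not overlap on any of the 3 days, but the changes of -0.69 and -0.85 on days 1 and 3 were not called, and the day 14 call was lost without control rat 3 (-0.94, 0.057) or rotenone rat 4 (-0.80, 0.0577), and with the mean of the gene's transcript clusters (-0.38, 0.149).

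Among 8 targets of CREB, the median change was -0.81 on day 1, -1.001 on day 3 and -0.13 on day 14. Only 3 of the 8 averaged above the bound: Sik1, Ppargc1a and Dusp1. Ppargc1a changed by 0.17, 0.03 and -0.17 on days 1, 3 and 14, and Dusp1 by 0.01, -0.16 and 0.38. The medians thus rest mostly on dim genes, whose changes are uncertain in size. Sik1, a salt-inducible kinase that is induced by cyclic AMP and restrains CREB coactivators, was called lower on each day. It had 8.09, 8.00, 7.77 and 7.90 log2 units in rotenone rats on day 1, against 8.67, 9.26, 9.25 and 9.30 in control rats. On day 14 it had 7.82, 7.89, 8.05 and 7.65 in rotenone rats, against 8.98, 9.49, 8.95 and 8.27 in control rats. The groups did not overlap on these days and overlapped on day 3 through rotenone rat 1, at 8.82, and control rat 4, at 8.79. The changes were -1.18, -1.10 and -1.07 ± 0.26 (adjusted p = 0.0359, 0.0425 and 0.024), and the calls were lost in 7, 6 and 5 of the 8 fits of each day with 1 array left out, with adjusted p-values up to 0.124, 0.173 and 0.0897. The day 3 call was also lost with equal array medians (-1.13, 0.0585) and with array weights (-0.98, 0.0677). The rotenone values of Sik1 were below the bound on all days but for rat 1 of day 3.

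Nr4a1 and Nr4a2, nuclear receptors that cyclic AMP and other stimuli induce within the hour, were called lower on day 3. Nr4a1 had 7.51, 7.07, 7.48 and 7.01 log2 units in rotenone rats of that day, against 8.44, 10.04, 10.07 and 8.29 in control rats. The rotenone rats lay below all controls, of which rats 2 and 3 were far above the other pair (-1.95 ± 0.39, adjusted p = 0.0137). Both genes averaged below the bound, and so did every rotenone value of both on day 3, so the sizes of these changes are uncertain. Leaving out control rat 2 (-1.67, adjusted p = 0.0672), control rat 3 (-1.66, 0.0694) or rotenone rat 2 (-1.88, 0.0558) ended the call. Nr4a2 had 7.04, 6.59, 6.94 and 6.84 in rotenone rats and 7.98, 9.60, 9.27 and 7.47 in control rats (-1.73 ± 0.39, adjusted p = 0.0343, lost in 6 of 8 fits with 1 array left out). Fos (-1.90 on day 3, at a mean of 5.98), Nr4a3 and Per1, which all averaged below the bound, were not called on any day, nor were Ppargc1a and Dusp1.

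**Figure D4:**
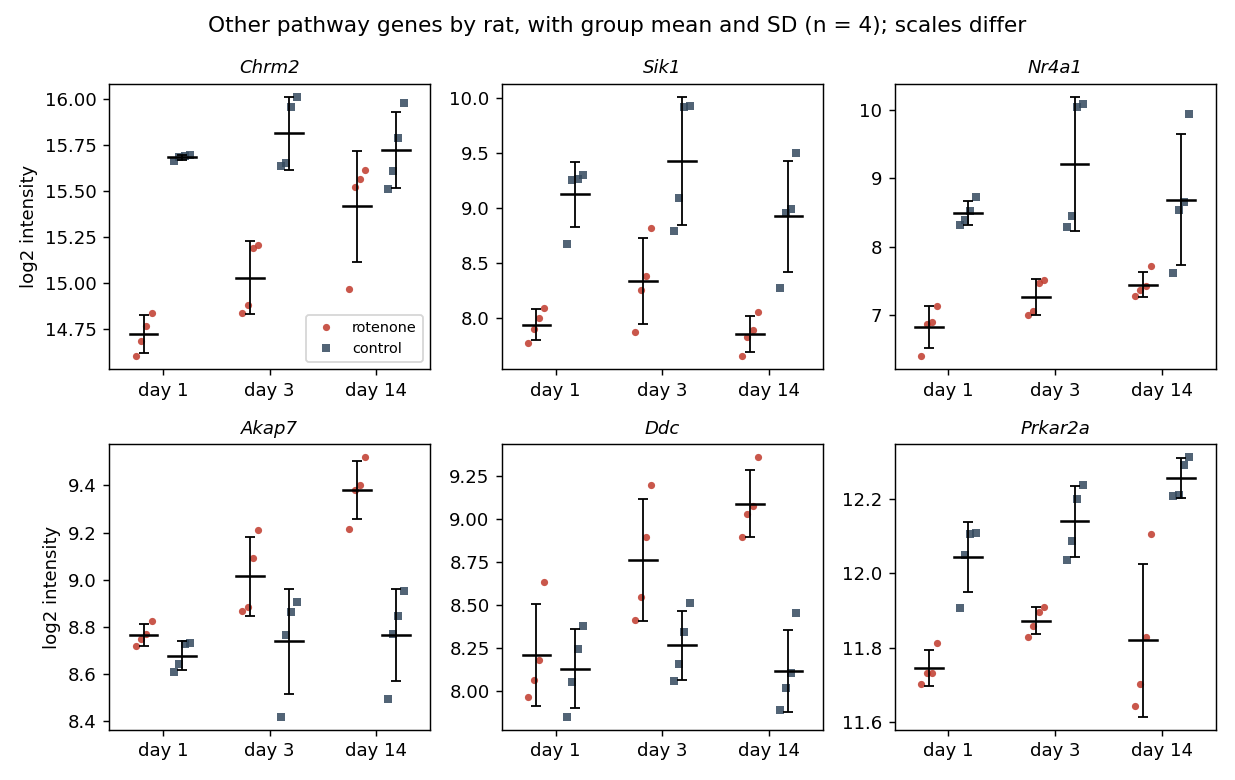
Log2 intensity of Chrm2, Sik1, Nr4a1, Akap7, Ddc and Prkar2a in each rat by day, rotenone rats (circles) left of control rats (squares), with points of a group spread sideways in order of value, the mean as a line and the SD as a bar (n = 4); axes differ between panels. Chrm2 values are apart on days 1 and 3 and overlap on day 14, whereas Akap7 and Ddc overlap on days 1 and 3 and are apart on day 14.

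Of 8 PKA subunits and inhibitors, 3 were called on day 14, and of 10 A-kinase anchoring proteins, 1. This was Akap7, which ties PKA to calcium channels and phospholamban. It had 9.22, 9.52, 9.40 and 9.38 log2 units in rotenone rats, against 8.77, 8.95, 8.84 and 8.49 in control rats. The groups did not overlap, the 1.53-fold rise (0.62 ± 0.12, adjusted p = 0.00476) remained called without any 1 array, and the changes of days 1 and 3 were 0.09 and 0.28, with overlap. Prkar2a, the type II regulatory subunit, had 12.11, 11.70, 11.83 and 11.64 in rotenone rats and 12.29, 12.31, 12.21 and 12.21 in control rats (-0.43 ± 0.09, adjusted p = 0.0111). It lay below its controls without overlap on each of the 3 days, but was not called on days 1 and 3 (both adjusted p = 0.24), and the day 14 call was lost without rotenone rat 4 (-0.38, 0.055). Prkaca, the main catalytic subunit, changed by -0.37 ± 0.10 (adjusted p = 0.047, with overlap, lost in 6 of 8 fits) and Pkig, an inhibitor peptide of PKA whose values lay below the bound, by 0.44 ± 0.11 (adjusted p = 0.0354, lost in 5 of 8). The calls of Prkaca and Pkig on day 14 were also lost with equal array medians (-0.42, 0.0545, and 0.38, 0.145).

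Of 13 substrates and partners of PKA in cardiomyocytes, 11 averaged above the bound and 2 were called, both on day 14. Cacnb2, the beta subunit of the L-type calcium channel, had 11.55, 11.79, 11.47 and 11.67 log2 units in rotenone rats and 11.31, 10.98, 10.88 and 11.08 in control rats (0.56 ± 0.12, adjusted p = 0.013). On day 1 it had been below its controls without overlap, by -0.35, and was not called. The day 14 call was lost without control rat 3 (0.50, 0.0541) or rotenone rat 2 (0.50, 0.0555), and with equal array medians (0.51, 0.0617). Fxyd1, or phospholemman, the sodium pump regulator that PKA phosphorylates, had 14.00, 13.54, 13.76 and 13.75 in rotenone rats and 14.11, 14.37, 14.08 and 14.51 in control rats. The groups did not overlap, and the change of -0.50 ± 0.12 (adjusted p = 0.0181) was lost in 5 of 8 fits with 1 array left out.

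Among the other lists, Prkce, a protein kinase C of the Gq arm, rose on day 3, with 9.92, 9.82, 9.85 and 9.89 log2 units in rotenone rats and 9.40, 9.57, 9.32 and 9.41 in control rats (0.44 ± 0.10, adjusted p = 0.0278, lost in 7 of 8 fits and, with equal array medians, at 0.176). Gcgr, the glucagon receptor, was lower on day 3 at values below the bound (-0.95 ± 0.18, adjusted p = 0.0117, lost without control rat 3, 0.0584, or rotenone rat 2, 0.0607). Ddc, the decarboxylase that makes dopamine, had 8.90, 9.08, 9.03 and 9.36 in rotenone rats of day 14, against 8.45, 8.02, 7.89 and 8.11 in control rats. This was a 1.97-fold rise without overlap (0.97 ± 0.18, adjusted p = 0.00407) that remained called without any 1 array, at control levels close to or below the bound. Th and Dbh, the enzymes that define noradrenaline-making nerve endings and which the neuron marker list also holds, averaged 4.79 and 5.09 log2 units, below the bound, and were not called. Of the monoamine oxidases, which degrade catecholamines, Maob was lower on day 14 at values below the bound (-0.45 ± 0.11, adjusted p = 0.0243, lost in 5 of 8 fits), and Maoa changed by -1.64 ± 0.45 (adjusted p = 0.049, lost in 6 of 8) with overlapping groups and control rats from 15.21 to 17.15. The Maoa call was also lost with array weights (-1.51, 0.0809) and with the mean of transcript clusters of each gene (-1.64, 0.0501).

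Markers of other cells of the tissue were called on days 3 and 14, and 0 were called on day 1. Day 1 also had the fewest calls over all transcript clusters (337, against 578 on day 3 and 1989 on day 14). Of 8 fibroblast markers, 4 were called lower on day 3 and 4 on day 14. Their summed intensities were 87328 to 146767 in rotenone rats and 131353 to 152540 in control rats of day 3, and 79081 to 162614 in rotenone rats and 113406 to 168260 in control rats of day 14. Of 6 erythroid markers, 3 were lower on day 3 and 6 on day 14. Their sums were 273360 to 613935 in rotenone rats and 639183 to 759283 in control rats of day 3, and 5407 to 239763 in rotenone rats and 575812 to 787147 in control rats of day 14. On day 1, with 0 calls in either list, the sum of 8 smooth muscle and pericyte markers was 250752 to 295177 in rotenone rats and 215538 to 235925 in control rats, with 0 of 8 called. The median change of these 8 markers on day 1 was -0.09, with single changes from -0.97 to 0.24. A sum follows its brightest genes, so the higher sum does not mean that the list as a whole was higher. Endothelial, leukocyte, neuron and adipocyte markers had 0 calls on any day, and no marker was listed at 0. Of these, 7 of 7 endothelial markers averaged above the bound, but only 1 of 7 leukocyte, 0 of 5 neuron and 0 of 6 adipocyte markers did. For the leukocyte, neuron and adipocyte lists the absence of calls therefore says little about the cells. The part of these shifts in the changes of the pathway genes was not tested.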

How the data were processed

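RNA of 24 hearts was hybridised to 24 Affymetrix Rat Transcriptome Arrays, and the labels gave 6 groups of 4 rats. The deposited values are linear intensities of transcript clusters, which the authors made with robust multi-array averaging after a correction for GC content and a signal space transformation. The program versions, build and annotation of that step were not given in the sources used here. Values reached 999973, and on each array 10 to 18 rows were within 1% of the top of the scale, where changes may be compressed.

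Log2 values were analysed as deposited. Of 70580 rows, 1738 controls were left out and 68842 were tested, of which 23446 had 1 symbol. The 1153 negative control rows set the bound at their 95th percentile. Changes were fitted with limma 3.58.1 in R 4.3.3 (version 1.17.8 of data.table), 1 coefficient for each of the 6 groups, all 24 arrays together and empirical Bayes moderation, and the script was tested on simulated data. Each adjusted p is limma's, by Benjamini and Hochberg over all rows tested. The number of arrays limits the precision, and the SE of a gene is the same on each day because the spread is pooled over the groups. The labels give separate rats as replicates.

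The members, the lists and the alternatives were chosen with earlier results of these data known. All members are named, and of each pathway list up to 4 called genes with the smallest p. Fos, Nr4a3, Per1, Ppargc1a, Dusp1, Th, Dbh and 5 further adrenergic receptors complete short counts, chosen after seeing their values. One gene was matched by its symbol Bves, and Pde11a, Popdc2 and Crhr2 had no row with 1 symbol. Promoter windows and gene types came from RefSeq (assembly GRCr8), matched by symbol; Adcy6 and Adra1a had no window. Alternatives were 2 scalings between arrays, 2 filters on dim rows, an offset of 32 before log2, an intensity trend with robust variances, array weights, the mean of a gene's transcript clusters, a 1.8-fold minimum, a fit of the 8 arrays of a day alone, fits without 1 array, the rat number as a replicate block, and the methods' factorial test. Plots used Python 3.11.15 and matplotlib 3.10.9.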

Additional observations from a re-analysis of the deposited data

Results flagged for a closer look

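Among 54 groups of 4 rats (9 members in 6 groups), 3 held a rat that stood apart from the other 3 of its group by Dixon's criterion, where chance gives about 1 in 20 groups. Adrb1 was 10.21 log2 units in control rat 2 of day 1, with the others between 9.69 and 9.75. Adcy5 was 12.31 in rotenone rat 3 of day 1, with the others between 12.68 and 12.74. Prkar1a was 15.66 in rotenone rat 2 of day 1, with the others between 15.78 and 15.79. The change of Adcy5 ran in opposite directions on 2 days: the 4 rotenone values lay below all control values on day 1 (-0.41) and above them on day 14 (0.24). The test of that difference did not pass in limma (0.65 ± 0.16, adjusted p = 0.125). The interaction of treatment and time in the methods' factorial test had an unadjusted p of 0.000236, under the study's threshold for heart.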

How the results depend on the processing

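Counts of called members (2 on each day, 3 for the average over days, 0 for the F-test over days and 0 between the controls of days 14 and 1) moved as follows. With the array medians set equal, 1 member was called on day 1 and 0 on day 14. With either filter on dim rows, 4 were called on day 1 and 4 for the average, and with the filter at the negative control bound 3 were called on day 14 and 1, Adcy5, differed between days. With the offset, 3 were called on day 1 and 4 for the average, and the average had 2 after quantile normalization or with the mean of transcript clusters. With a minimum change of 1.8-fold, 0 were called on any day or for the average, and 0 were called on each day when only the 8 arrays compared were fitted or under the methods' factorial test. The methods' test includes the 1.8-fold minimum, which no member reached on any day, so its 0 was fixed by that minimum. By its treatment factor alone, Adcy6 (unadjusted p = 1.57e-08) and Pde4b (1.83e-09) passed the study's threshold for heart, and no other member did. Leaving out 1 array gave 1 to 2 on day 1, 2 to 2 on day 3, 0 to 2 on day 14, 2 to 4 for the average, 0 to 0 for the difference between days and 0 to 0 for the controls.

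Pathway genes called (2, 6 and 13 on days 1, 3 and 14) numbered 1 on day 1 after quantile normalization. They numbered 7 and 10 on days 1 and 3 with the filter at the bound, 6, 11 and 20 on the 3 days with the filter at the median, 4 and 10 on days 1 and 3 with the offset, and 4 on day 1 with robust variances or array weights. They numbered 4 on day 14 with the 1.8-fold minimum and 0 on days 3 and 14 with 8 arrays. Leaving out 1 array gave 1 to 2, 1 to 5 and 4 to 16.

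All transcript clusters called (337, 578 and 1989) numbered 365 on day 3 and 1265 on day 14 with equal medians, 643 and 936 on days 1 and 3 with the filter at the bound, 654, 1211 and 3303 with the filter at the median, and 581 and 1006 on days 1 and 3 with the offset. They numbered 128, 232 and 513 with the 1.8-fold minimum, 68, 123 and 118 with 8 arrays, 107, 199 and 257 under the methods' test, and 172 to 282, 301 to 500 and 885 to 3225 with 1 array left out. The share that was higher was 40.65% on day 1 as deposited, 61.64% after quantile normalization and 32.79% with equal medians, and on day 14 it was 48.47%, 43.39% and 24.98%. The causes were not tested, other than that filters and 8-array fits change the number of tests or samples.

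Over all alternatives, 911 values of member changes kept their direction and their side of the threshold, 46 lost a call, 10 gained one and 14 reversed, all of them of changes that were not called. The average of Adcy5 was -0.0212 with equal medians. For control day 14 against day 1, Prkar1a was 0.213 after quantile normalization and Adra1a -0.163 with the mean of its transcript clusters. With 1 array left out, Pde3a ranged from -0.0355 to 0.166 on day 1 and -0.00126 to 0.134 on day 3, Adrb1 from -0.0204 to 0.153 on day 3 and -0.0983 to 0.0764 for the controls, Prkar1a from -0.0798 to 0.0108 for the controls and Pde4d from -0.0772 to 0.0104 for the average.

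The rat numbers are shared between groups, but nothing in the labels says that rats of 1 number belong together. Same-numbered rats of rotenone and control groups deviated together with r between -0.641 and 0.518 over 12 pairs, of which 5 were over 0.1, and 3 arrays correlated best with their own number. With so few pairs and values of both signs, these correlations cannot decide whether same-numbered rats shared more than the number. With the rat number as a replicate block, 2 members were called on each day, 3 for the average, 0 for the other comparisons, and 2, 6 and 13 pathway genes and 297, 519 and 1794 transcript clusters on days 1, 3 and 14. With 4 rats per group and most values near the negative controls, changes of dim genes have the least certain size.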
